A study of Mus musculus with 13 samples.

Results

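Interleukins, tumour necrosis factor (TNF) family cytokines, colony-stimulating factors and their receptors were followed as a set of 42 genes among the 26264 listed for each library. Members were taken by gene symbol, and all 42 were found: 16 ligands, 1 receptor antagonist, 22 signalling receptors or receptor subunits, and 3 decoy receptors. RNA came from the right ventricle of mice, as 6 libraries labelled wild type and 7 labelled Dsg2 F536C knock-in. Dsg2 encodes desmoglein 2, an adhesion protein of the desmosomes between heart muscle cells, and the series concerns arrhythmogenic cardiomyopathy, an inherited disease of fibrosis, fat deposition and arrhythmia. The labels name no other allele, agent or treatment for these libraries, and state neither strain, zygosity, sex, age nor whether each library was a separate animal. P-values therefore measure the spread between these samples, which may be technical.

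Cytokines are small secreted or membrane-bound proteins that act on cells carrying the matching receptor. Interleukin-1 family members signal through receptor pairs that recruit MYD88 and IRAK kinases and reach NF-kappaB. Interleukin-6 family members (IL-6, IL-11, LIF, oncostatin M) share the subunit gp130, encoded by Il6st, and act through JAK kinases and STAT3. TNF superfamily receptors act through TRAF adaptors. Antagonists and decoy receptors bind the same partners without signalling, and in the heart these systems are known for their part in injury responses, leukocyte recruitment and scarring.

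Totals were 14498336 to 29848597 reads per library. Knock-in 4, 5 and 6 stood apart: fractional values made up 10.2% to 10.7% of their estimated counts and 3.07% to 3.79% of those in the remaining 10 libraries, and the summed level of 9 epithelial markers was 2822 to 3896 CPM in them and 10.2 to 35.9 CPM elsewhere. Each comparison is therefore given over all 13 libraries and over the 10 libraries without those 3, in that order where values come in pairs. CPM is the number of reads scaled to a common library size by the trimmed mean of M values (TMM), which assumes that most genes do not differ. Dsg2 itself lay at 84.2 to 116 CPM in the wild type and was lower in every knock-in library, at 33.2 to 61.9 CPM, with log2 fold changes of -1.08 ± 0.14 (SE, adjusted p = 6.96e-05) and -0.97 ± 0.12 (SE, adjusted p = 3.17e-05) by edgeR's quasi-likelihood test with Benjamini-Hochberg adjustment over all tested genes. The substitution is not visible in read numbers, so this level does not show it. Heart muscle markers were abundant in every library, and the lung epithelial markers Sftpc, Sftpb, Sftpa1 and Scgb1a1 summed to at most 0.144 CPM.

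Among the cytokine genes that could be tested, more were called higher than lower in the knock-in ventricle. Over 13 libraries 37 of the 42 members had enough reads to be tested, and 20 were called higher and 4 lower at an adjusted p under 0.05. Over 10 libraries 35 were tested, and 23 were called higher and 2 lower. The same rule called 44.6% of all tested genes over 13 libraries (23.6% higher and 21.0% lower) and 43.7% over 10 (22.3% higher and 21.3% lower). Tested members had a median log2 fold change of 0.62 and 0.79, against 0.08 and 0.02 for all tested genes. In 10 of the 37 members every knock-in library lay above every wild-type library, which held for 8.47% of all tested genes, and over 10 libraries in 18 of 35, against 14.7%. With each library's total as the scale in place of TMM, the median of all tested genes rose to 0.33 and 0.26. On that scale 26 members were higher and 2 lower over 13 libraries and 29 and 1 over 10, and all tested genes split into 6110 higher and 1661 lower over 13 libraries, against 3442 and 3060 with TMM (6049 and 1528 against 3241 and 3099 over 10). Of the members that did not pass with TMM, Il1b, Tnf, Tnfsf12, Il1rap, Il6ra and Il4ra were called higher with totals over 13 libraries, and Il18, Lif, Csf1, Il1rl1, Il11ra1 and Il13ra1 over 10. Members passed the filter partly through the group in which they were high, and were listed with earlier results of these data known, so these counts describe the set and carry no test.

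Calls in the same direction over both sets of libraries covered 19 members. The share of all tested genes called alike in both sets is not given here, only the shares for each set above. Higher were the ligands Il33, Il7, Il34 and Tnfsf13b, the antagonist Il1rn, the receptors Il1r1, Osmr, Il10ra, Il17ra, Il7r, Csf2ra, Csf2rb, Csf3r, Tnfrsf1a, Tnfrsf1b and Tnfrsf12a, and the decoy receptor Tnfrsf11b. Lower were the ligand Il15 and the receptor subunit Il10rb. RNA from bulk tissue cannot tell fewer cells of a type from less RNA per cell, and this holds for every value that follows. Of the 17 higher members, 10 had their highest level in knock-in 7. In 8 of the 17 (Il33, Il1rn, Il1r1, Osmr, Il10ra, Csf2ra, Csf2rb and Tnfrsf1a), knock-in 4, 5 and 6 all lay below the other 4 knock-in libraries, and in 0 of the 17 did they all lie above them. How often these patterns occur among all tested genes is not given here, so neither is read as particular to these members.

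**Figure D1:**
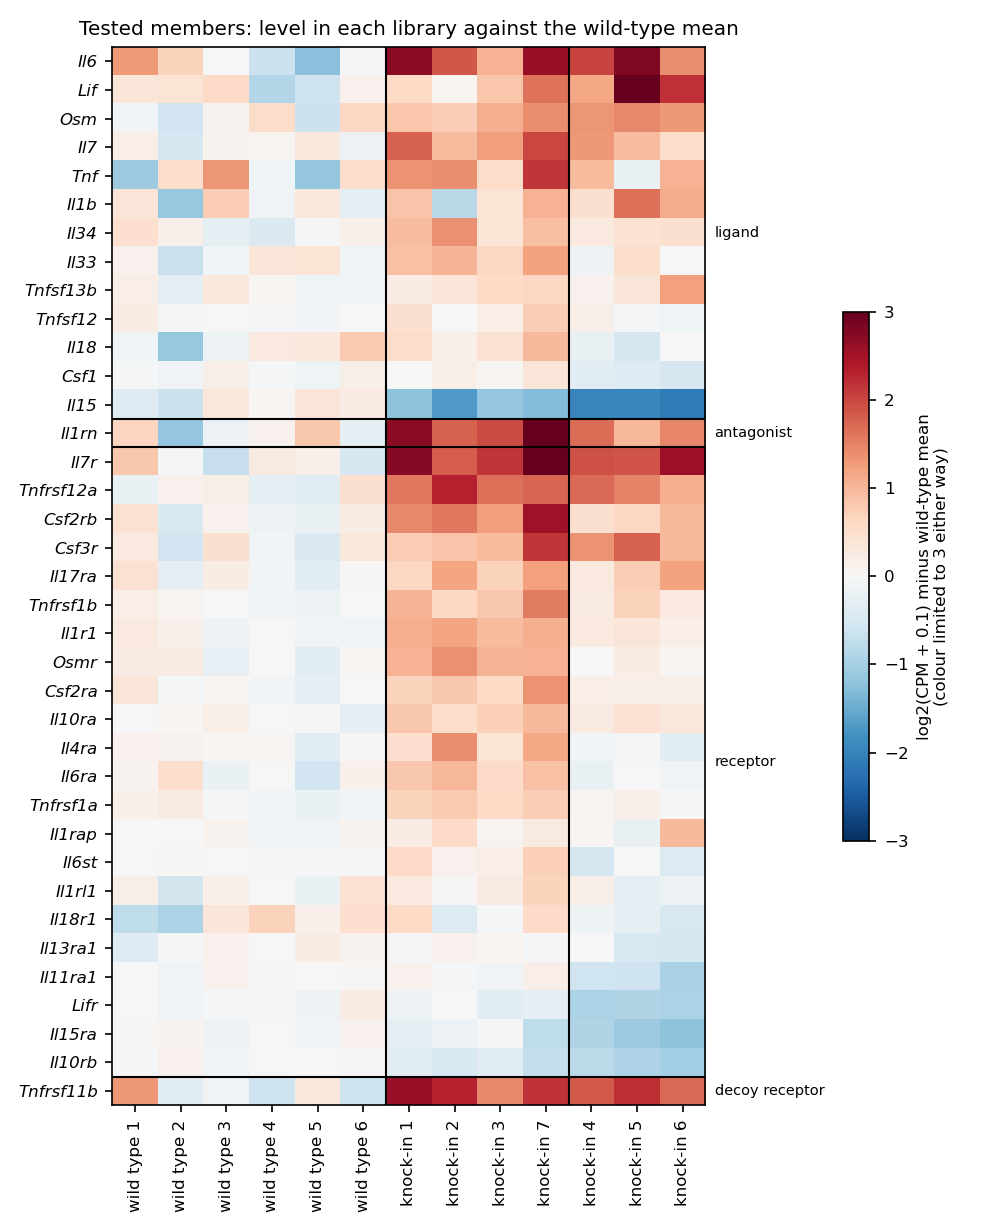
Level of each tested member in each library, as log2(CPM + 0.1) minus the wild-type mean (colour, limited to 3 either way), with libraries in columns and members in rows by role. The 4 knock-in libraries 1, 2, 3 and 7 are red across most receptor rows, knock-in 4, 5 and 6 are paler or blue in many of the same rows, and Il15 is blue in all 7 knock-in libraries.

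Promoters are shown for the 5 members with a RefSeq entry whose knock-in libraries all lay above the wild-type ones, to show whether the sequences before their starts hold letters bound by the factors downstream of these receptors. RefSeq (GRCm38.p6, an older build than that of the read numbers) had entries for 31 of the 42 members. Each line gives the 250 bases before the start, 5′ to 3′ on the gene's strand, with motif matches in capitals. The places are Tnfrsf12a chr17:23677450-23677699 (minus strand), Il7r chr15:9529877-9530126 (minus), Tnfrsf1b chr4:145246871-145247120 (minus), Csf3r chr4:126024409-126024658 (plus) and Il1rn chr2:24336610-24336859 (plus, 1 of several entries for the gene).
Tnfrsf12a: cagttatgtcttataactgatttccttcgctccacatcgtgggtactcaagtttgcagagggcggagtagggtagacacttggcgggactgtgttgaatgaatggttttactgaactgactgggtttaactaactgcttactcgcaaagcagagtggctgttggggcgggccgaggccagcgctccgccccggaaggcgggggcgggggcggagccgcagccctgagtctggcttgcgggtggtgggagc
Il7r: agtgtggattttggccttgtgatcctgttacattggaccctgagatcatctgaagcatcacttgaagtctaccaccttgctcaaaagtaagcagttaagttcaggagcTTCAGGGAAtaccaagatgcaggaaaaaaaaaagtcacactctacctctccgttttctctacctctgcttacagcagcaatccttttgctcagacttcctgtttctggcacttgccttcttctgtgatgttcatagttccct
Tnfrsf1b: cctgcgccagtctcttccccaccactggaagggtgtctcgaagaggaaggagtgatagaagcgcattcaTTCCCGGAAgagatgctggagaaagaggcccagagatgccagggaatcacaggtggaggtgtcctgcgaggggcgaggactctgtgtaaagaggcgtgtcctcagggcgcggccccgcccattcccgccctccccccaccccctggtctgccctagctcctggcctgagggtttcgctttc
Csf3r: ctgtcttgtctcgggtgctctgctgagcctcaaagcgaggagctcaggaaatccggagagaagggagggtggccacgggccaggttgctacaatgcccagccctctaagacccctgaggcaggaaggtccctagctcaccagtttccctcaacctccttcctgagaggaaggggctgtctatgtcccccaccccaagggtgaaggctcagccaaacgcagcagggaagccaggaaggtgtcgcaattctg
Il1rn: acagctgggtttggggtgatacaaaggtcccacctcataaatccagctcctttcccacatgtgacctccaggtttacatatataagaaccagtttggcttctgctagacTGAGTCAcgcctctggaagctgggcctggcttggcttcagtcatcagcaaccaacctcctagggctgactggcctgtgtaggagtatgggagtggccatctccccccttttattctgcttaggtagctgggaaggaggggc
Searched on both strands were the STAT motif TTCNNNGAA, the AP-1 motif TGANTCA and a kappaB motif, and no printed window held more than 1 match. Il7r held a STAT match 142 bases before the start and Tnfrsf1b a STAT match 181 bases before it. The printed Il1rn window held an AP-1 match 141 bases before the start. The Il1rn entries not printed here held no match of the motifs searched. The Tnfrsf12a and Csf3r windows held no match either, which says only that these letters are not in those 250 bases. Over all 43 member windows, 5 held the STAT motif, 8 the AP-1 motif and 3 the kappaB motif (Csf1, Il1r1 and Il6). Among all 32851 RefSeq windows of the same length the shares were 7.02%, 6.75% and 3.90%. A match is a description of the sequence and not a binding site.

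Among the ligands, Il15 was the most abundant in wild type, at 82.8 ± 15.4 TPM (SD, n = 6), and the only one called lower in either set. Il15 encodes interleukin-15, a survival factor for NK cells and memory T cells that is presented by its own receptor chain, IL-15 receptor alpha. In wild type it lay at 53.8 CPM at the lowest, 93.9 at the median and 110.1 at the highest. Knock-in 1, 2, 3 and 7 held 36.1, 25.8, 37.5 and 33.9 CPM, and knock-in 4, 5 and 6 held 21.4, 21.7 and 19.3. Every knock-in library was below every wild-type one, as in 10.5% of all tested genes. It fell 3.11-fold over 13 libraries (log2 fold change -1.64 ± 0.21, SE, adjusted p = 5.43e-05) and 2.61-fold over 10 (-1.38 ± 0.20, SE, adjusted p = 0.000188). All 9 cardiomyocyte markers also fell over 13 libraries and 8 of 9 over 10, against 21.0% and 21.3% of all tested genes. Each marker had reads in every library. Their summed level was 58663 to 87802 CPM in wild type. It was 33043 to 49442 in knock-in 1, 2, 3 and 7 and 24262 to 28054 in knock-in 4, 5 and 6. The part of these markers in the Il15 result was not tested.

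Il15ra, the high-affinity receptor chain for interleukin-15, went from 22.0 ± 1.73 CPM (SD, n = 6) to 14.7 ± 4.72 CPM (SD, n = 7). It was called lower over 13 libraries (log2 fold change -0.58 ± 0.18, SE, adjusted p = 0.0200) and did not pass over 10 (-0.30 ± 0.12, SE, adjusted p = 0.0600). With library totals the 13-library value was -0.34 (adjusted p = 0.129). The ratio of Il15 to Il15ra in TPM, a level per transcript length, was 5.24 ± 1.69 (SD, n = 6) in wild type and 2.65 ± 0.567 (SD, n = 7) in knock-in, with ranges of 3.01 to 7.14 and 1.75 to 3.62 that overlap.

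Il7 and its receptor both rose. Il7 encodes a stromal cytokine needed for lymphocyte survival, and Il7r its receptor chain, which pairs with the common gamma chain. Wild-type Il7 lay between 1.30 and 2.41 CPM with a median of 2.04. Its levels were 6.73, 3.79, 4.72 and 7.99 CPM in knock-in 1, 2, 3 and 7 and 4.86, 3.71 and 2.84 CPM in knock-in 4, 5 and 6, all above wild type. The rise was 2.55-fold (log2 fold change 1.35 ± 0.25, SE, adjusted p = 0.000849) and 3.01-fold (1.59 ± 0.23, SE, adjusted p = 0.000130). Exons of Il7 overlap an annotated gene on the other strand, as do those of Il34, Il1a, Il1rap, Il6ra and Il4ra, and the strand setting of the counting is not given in the sources used here, so a part of their reads is uncertain.

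Il7r had the largest rise among the receptors in both sets. Wild-type libraries held 0.496 to 1.58 CPM with a median of 0.908. In knock-in 1, 2, 3 and 7 it stood at 6.29, 3.30, 4.13 and 14.4 CPM and knock-in 4, 5 and 6 held 3.51, 3.44 and 5.64, so the groups did not overlap and knock-in 7 stood well above the rest. It rose 6.23-fold (log2 fold change 2.64 ± 0.40, SE, adjusted p = 0.000216) and 7.52-fold (2.91 ± 0.41, SE, adjusted p = 0.000159). Without knock-in 7 the log2 fold changes were 2.23 (adjusted p = 0.000136) and 2.27 (adjusted p = 0.000286). Its promoter is 1 of the 2 printed above with a STAT match, beside that of Tnfrsf1b. Of 7 T cell markers 4 were tested, with 3 called higher over 13 libraries and 2 over 10 (background 23.6% and 22.3%). Their summed level was 1.67 to 5.08 CPM in wild type, 6.42 to 8.03 in knock-in 1, 2, 3 and 7 and 7.22 to 11.6 in knock-in 4, 5 and 6; Cd5 had no reads in 1 library. Their part in the Il7r result was not tested. Il2rg, which encodes the common gamma chain and was singled out after its values were seen, rose as well, from 9.57 ± 2.04 to 13.9 ± 2.34 CPM (SD, n = 6 and 7; log2 fold change 0.55 ± 0.16, SE, adjusted p = 0.0127).

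**Figure D2:**
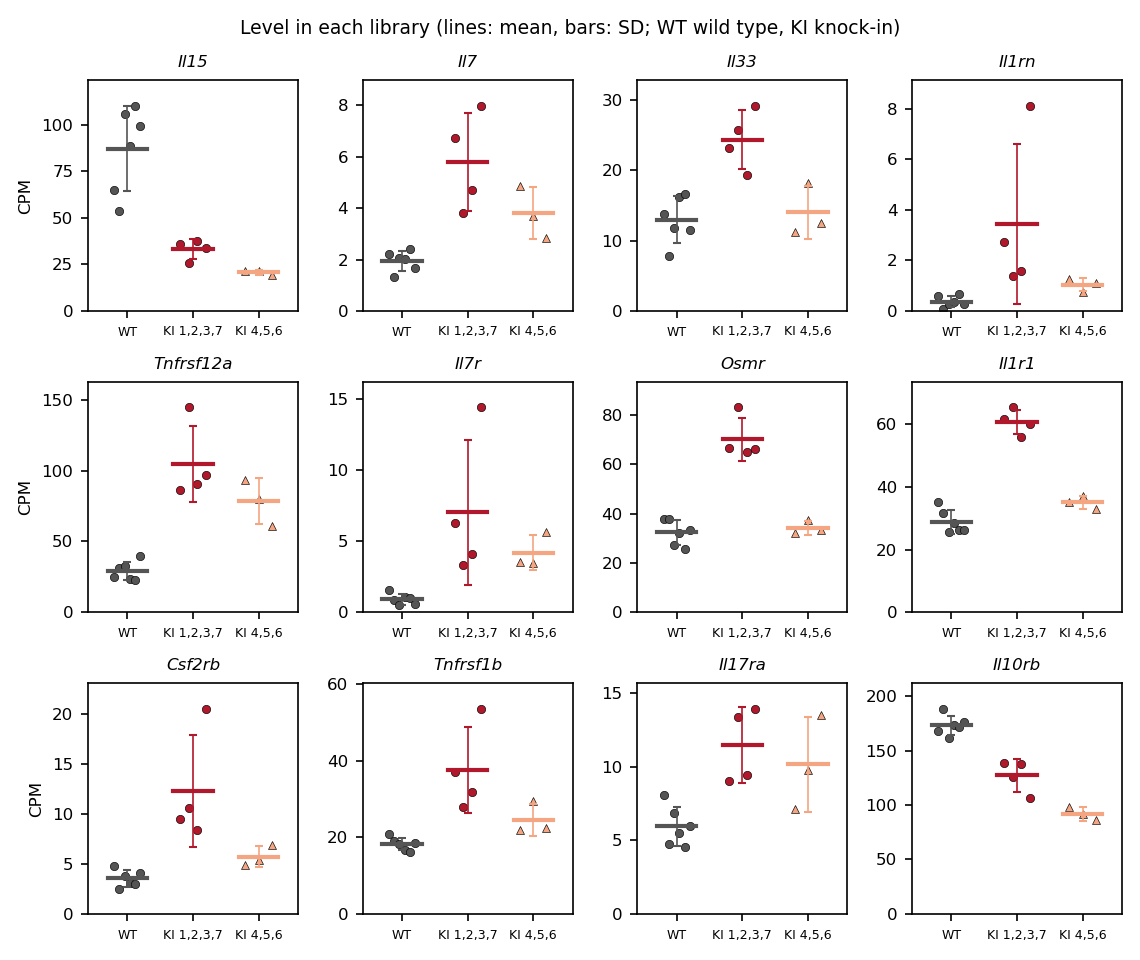
CPM of 12 members in each library, with 1 point per library, a line at the mean and bars of 1 SD, for wild type (grey circles), knock-in 1, 2, 3 and 7 (red circles) and knock-in 4, 5 and 6 (orange triangles). Il15 and Il10rb lie below wild type in all knock-in libraries, Tnfrsf12a, Il7, Il7r, Il1rn, Csf2rb and Tnfrsf1b above it in all, and Il1r1 and Osmr well above it in 4 and near it in 3.

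Within the interleukin-1 family the antagonist rose most. Il1rn encodes the IL-1 receptor antagonist, which occupies the IL-1 receptor without signalling. It was scarce in wild type, at 0.0932 to 0.652 CPM with a median of 0.328 (2 to 12 reads). Knock-in 1, 2, 3 and 7 held 2.71, 1.37, 1.57 and 8.13 CPM and knock-in 4, 5 and 6 held 1.26, 0.756 and 1.09. No knock-in library reached down to the wild-type range, and knock-in 7 was again the highest by a wide margin. Il1rn rose 6.47-fold (log2 fold change 2.69 ± 0.61, SE, adjusted p = 0.00343) and 9.41-fold (3.23 ± 0.55, SE, adjusted p = 0.000533). Without knock-in 7 these became 1.96 (adjusted p = 0.00261) and 2.33 (adjusted p = 0.00155) on the log2 scale.

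The signalling receptor for interleukin-1, Il1r1, rose too. Its wild-type levels were 25.7 to 35.3 CPM with a median of 27.3. Knock-in 1, 2, 3 and 7 lay close together at 61.5, 65.4, 56.0 and 60.0 CPM, while knock-in 4, 5 and 6 were near or inside the wild-type range at 35.3, 37.1 and 32.9. On the log2 scale this was 0.78 ± 0.18 (SE, adjusted p = 0.00305) over 13 libraries and 1.07 ± 0.10 (SE, adjusted p = 4.97e-06) over 10, a 2.10-fold rise. Il1rap, the accessory chain that IL-1 and IL-33 receptors share, was called over 10 libraries only, with 11.0 ± 0.707 CPM in the wild type against 13.6 ± 2.04 CPM in knock-in 1, 2, 3 and 7 (SD, n = 6 and 4; log2 fold change 0.30 ± 0.11, SE, adjusted p = 0.0352). That call was lost without wild type 4 or 5 or knock-in 1, 2 or 7, with adjusted p-values of 0.0605 to 0.148.

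Il33, an alarmin stored in the nuclei of stromal and endothelial cells, rose mainly outside knock-in 4, 5 and 6. Wild-type libraries spanned 7.87 to 16.7 CPM with a median of 12.8. Levels were 23.1, 25.8, 19.3 and 29.2 CPM in knock-in 1, 2, 3 and 7, all above wild type, and 11.3, 18.3 and 12.5 CPM in knock-in 4, 5 and 6, where 2 of 3 lay inside its range. Its log2 fold change over 10 libraries was 0.91 ± 0.18 (SE, adjusted p = 0.00126). Over 13 it was 0.62 ± 0.23 (SE, adjusted p = 0.0428), and that call was lost without any 1 of wild type 1, 2, 3 or 6 or knock-in 1, 2, 3, 5 or 7 (adjusted p 0.0519 to 0.0835). Its receptor Il1rl1, also named ST2, did not pass in either set: 4.41 ± 1.04 CPM in the wild type against 4.85 ± 1.10 CPM in knock-in (SD, n = 6 and 7; log2 difference 0.14 ± 0.19, SE, adjusted p = 0.570; over 10 libraries 0.31 ± 0.19, adjusted p = 0.213).

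Il1b and Il18, the IL-1 family cytokines released through inflammasomes, did not pass in either set. Il1b had 2.12 ± 0.893 CPM in the wild type against 3.54 ± 1.65 CPM in knock-in (SD, n = 6 and 7; adjusted p = 0.105), with overlapping groups. For Il18 the levels were 2.13 ± 0.888 and 2.40 ± 0.870 CPM (adjusted p = 0.656), and for its receptor chain Il18r1 4.87 ± 2.03 and 4.56 ± 1.53 CPM (adjusted p = 0.824). Il1a, with 0 to 2 reads in wild type and 0 to 14 in knock-in, and the decoy receptor Il1r2, with 0 to 4 and 2 to 17 reads, were under the filter on low counts. With no filter Il1a had log2 fold changes of 2.06 (adjusted p = 0.140) over 13 libraries and 2.65 (adjusted p = 0.0312) over 10. Of the 10 IL-1 family members 8 were tested, and 3 were called higher over 13 libraries and 4 over 10 (background shares of 23.6% and 22.3%).

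The gp130 cytokines were scarce, and their receptors abundant. Il6, Lif and Osm were called higher over 13 libraries. Il6 had 0 to 10 reads in wild type (0 to 0.479 CPM) and 6 to 41 reads in knock-in (0.393 to 1.55 CPM), and its log2 fold change was 2.36 ± 0.54 (SE, adjusted p = 0.00340). Osm, which encodes oncostatin M, had 2 to 8 reads in wild type and 9 to 25 in knock-in with no overlap in CPM (log2 fold change 1.36 ± 0.32, SE, adjusted p = 0.00379). Neither passed the read filter over 10 libraries. With no filter on low counts they had log2 fold changes of 2.37 (adjusted p = 0.00433) and 1.18 (adjusted p = 0.0462) there. Lif was highest in the libraries set apart, with 2.49, 9.08 and 5.14 CPM in knock-in 4, 5 and 6, 1.65, 1.10, 1.97 and 3.47 CPM in knock-in 1, 2, 3 and 7 and 1.13 ± 0.448 CPM in wild type (SD, n = 6). It was called over 13 libraries (log2 fold change 1.66 ± 0.47, SE, adjusted p = 0.0116) and not over 10 (0.87 ± 0.36, SE, adjusted p = 0.0635). The call was also lost with an indicator for knock-in 4, 5 and 6 in the fit (adjusted p = 0.111). Epithelial markers were high in the same 3 libraries, as given above, and their part in the Lif result was not tested. Il11, with 1 to 6 reads in wild type and 5 to 17 in knock-in, was not tested; with no filter its log2 fold changes were 1.75 (adjusted p = 0.0184) and 2.09 (adjusted p = 0.00550).

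Among the receptors of this family Osmr, the oncostatin M receptor, rose in both sets. Wild-type levels were 25.9 to 37.9 CPM with a median of 32.9. Values for knock-in 1, 2, 3 and 7 were 66.5, 83.2, 64.9 and 66.4 CPM, and knock-in 4, 5 and 6, at 32.1, 37.6 and 33.5 CPM, lay wholly inside the wild-type range. The rise was 1.69-fold (log2 fold change 0.76 ± 0.22, SE, adjusted p = 0.0139) and 2.16-fold (1.11 ± 0.12, SE, adjusted p = 1.42e-05). Il6ra and Il6st, the IL-6 receptor and gp130, were called over 10 libraries only. Il6ra had 6.31 ± 1.60 CPM in the wild type against 11.0 ± 1.35 CPM in knock-in 1, 2, 3 and 7 (SD, n = 6 and 4; log2 fold change 0.79 ± 0.17, SE, adjusted p = 0.00232). Il6st had 246 ± 7.20 and 330.4 ± 65.5 CPM in the same libraries (log2 fold change 0.43 ± 0.12, SE, adjusted p = 0.00819). In knock-in 4, 5 and 6 Il6st lay at 170.0, 245 and 186 CPM, inside or below the wild-type range of 235 to 252.

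Lifr, the LIF receptor, moved the other way. It had 98.5 ± 10.02 CPM in the wild type against 71.5 ± 20.3 CPM in knock-in (SD, n = 6 and 7) and was called lower over 13 libraries (log2 fold change -0.46 ± 0.17, SE, adjusted p = 0.0371). The lowest were knock-in 4, 5 and 6 at 50.5, 52.0 and 50.8 CPM. Over 10 libraries it did not pass (-0.18 ± 0.10, SE, adjusted p = 0.149), and scaling by totals turned that value to 0.07 (adjusted p = 0.599). The 13-library call was lost with library totals (-0.21, adjusted p = 0.297), on log2(TPM + 1) (-0.01, adjusted p = 0.958) and with an indicator for knock-in 4, 5 and 6 (-0.18, adjusted p = 0.149). It was also lost without any 1 of wild type 1, 3, 4 or 6 or knock-in 4, 5 or 6 (adjusted p 0.0529 to 0.0797). Il11ra1, the IL-11 receptor, did not pass in either set (110.1 ± 7.08 and 93.3 ± 26.8 CPM, SD, n = 6 and 7; adjusted p = 0.259), and its estimated counts were not whole in any library, and it can share reads with the near-identical Il11ra2.

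The 2 chains of the interleukin-10 receptor went in opposite directions. Il10ra, the ligand-binding chain found mainly on leukocytes, lay at 8.74 to 12.0 CPM in wild type with a median of 10.8. Knock-in 1, 2, 3 and 7 held 18.6, 15.3, 17.4 and 21.0 CPM and knock-in 4, 5 and 6 held 12.8, 14.3 and 13.5, all above wild type. Il10ra rose 1.52-fold (log2 fold change 0.60 ± 0.13, SE, adjusted p = 0.00261) and 1.70-fold (0.77 ± 0.11, SE, adjusted p = 0.000133). Il10rb, the widely expressed chain that receptors for IL-10, IL-22 and interferon lambda share, lay at 162 to 189 CPM in wild type with a median of 173. The libraries knock-in 1, 2, 3 and 7 held 139, 126, 138 and 106 CPM and knock-in 4, 5 and 6 held 98.5, 91.7 and 85.9. All 7 were below wild type, a fall of 1.54-fold (log2 fold change -0.62 ± 0.12, SE, adjusted p = 0.00118) and 1.36-fold (-0.45 ± 0.09, SE, adjusted p = 0.00169). An exon of Il10rb is shared with the annotated gene Gm21970 on the same strand. The Il10rb call depended on the scaling: with library totals it was -0.38 (adjusted p = 0.0205) and -0.20 (adjusted p = 0.102), and on log2(TPM + 1) it was lost in both sets (adjusted p = 0.153 and 0.687). Il10 itself had 0 to 3 reads in wild type and 2 to 7 in knock-in and was not tested.

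Il17ra, the shared chain of IL-17 receptors, rose in both sets. It lay at 4.56 to 8.05 CPM in wild type with a median of 5.75, at 9.05, 13.4, 9.43 and 13.9 CPM in knock-in 1, 2, 3 and 7 and at 7.15, 9.80 and 13.5 CPM in knock-in 4, 5 and 6. Only knock-in 4 fell within the wild-type range. The log2 fold changes were 0.88 ± 0.19 (SE, adjusted p = 0.00246) and 0.95 ± 0.18 (SE, adjusted p = 0.000879). Il4ra, the receptor chain that IL-4 and IL-13 share, was called over 10 libraries only: 26.6 ± 2.82 CPM in the wild type against 50.4 ± 16.7 CPM in knock-in 1, 2, 3 and 7 (SD, n = 6 and 4; log2 fold change 0.92 ± 0.17, SE, adjusted p = 0.000924). In knock-in 4, 5 and 6 it was at 24.9, 25.8 and 21.3 CPM, against a wild-type range of 21.3 to 29.1. Il13ra1 had log2 differences of -0.12 ± 0.13 and 0.02 ± 0.11 (SE, adjusted p = 0.472 and 0.917; on log2(TPM + 1) the first was 0.34, adjusted p = 0.0159), and the decoy Il13ra2 had 0 to 3 reads in wild type and 0 to 5 in knock-in.

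The colony-stimulating factor receptors Csf2ra, Csf2rb and Csf3r rose in both sets. Csf2rb encodes the common beta chain of the receptors for GM-CSF, IL-3 and IL-5, and Csf2ra the GM-CSF receptor alpha chain. Wild-type Csf2rb lay at 2.52 to 4.79 CPM with a median of 3.48. It was at 9.54, 10.7, 8.45 and 20.6 CPM in knock-in 1, 2, 3 and 7 and at 4.90, 5.41 and 6.89 CPM in knock-in 4, 5 and 6, all above wild type though knock-in 4 only just. The rise was 2.67-fold (log2 fold change 1.42 ± 0.31, SE, adjusted p = 0.00245) and 3.49-fold (1.80 ± 0.25, SE, adjusted p = 0.000103). Its near-copy Csf2rb2 can share reads with it, so the division between them is uncertain. Csf2ra lay at 7.62 to 11.8 CPM in wild type (median 8.93), at 14.6, 16.1, 14.02 and 23.6 CPM in knock-in 1, 2, 3 and 7 and at 10.6, 10.4 and 10.5 CPM in knock-in 4, 5 and 6, inside the wild-type range. Its log2 fold changes were 0.62 ± 0.19 (SE, adjusted p = 0.0179) and 0.89 ± 0.16 (SE, adjusted p = 0.000521).

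Csf3r, the G-CSF receptor of neutrophils and other myeloid cells, lay at 1.12 to 2.41 CPM in wild type with a median of 1.85. Knock-in 1, 2, 3 and 7 held 2.95, 3.19, 3.41 and 7.92 CPM and knock-in 4, 5 and 6 held 4.50, 6.09 and 3.43, all above wild type. It rose 2.55-fold (log2 fold change 1.35 ± 0.28, SE, adjusted p = 0.00195) and 2.50-fold (1.32 ± 0.31, SE, adjusted p = 0.00359). Over 10 libraries without knock-in 7 its log2 fold change was 0.84 (adjusted p = 0.0213). Of 8 neutrophil markers 2 could be tested, S100a8 (adjusted p = 0.661 and 0.630) and S100a9 (adjusted p = 0.245 and 0.974), and the neutrophil gene Ly6g had no reads in any of the 13 libraries. Their summed level was 1.40 to 13.2 CPM in wild type, 2.69 to 10.1 in knock-in 1, 2, 3 and 7 and 2.27 to 25.6 in knock-in 4, 5 and 6.

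Of the 2 ligands of the CSF1 receptor, Il34 rose and Csf1 did not pass. Il34 lay at 2.29 to 4.46 CPM in wild type with a median of 3.23. It was at 6.05, 8.30, 4.19 and 5.99 CPM in knock-in 1, 2, 3 and 7 and at 3.87, 4.27 and 4.42 CPM in knock-in 4, 5 and 6. Knock-in 3, 4, 5 and 6 were inside the wild-type range. The log2 fold changes were 0.72 ± 0.22 (SE, adjusted p = 0.0156) and 0.93 ± 0.21 (SE, adjusted p = 0.00310). Csf1 had 65.1 ± 6.35 CPM in the wild type against 62.8 ± 14.5 CPM in knock-in (SD, n = 6 and 7), which differed on the log2 scale by -0.05 ± 0.14 (SE, adjusted p = 0.797), and 0.17 ± 0.10 over 10 libraries (adjusted p = 0.167). On log2(TPM + 1) the 13-library value of Csf1 turned to 0.36 (adjusted p = 0.0256). Of the 5 members of this family 4 were called higher in both sets, beside background shares of 23.6% and 22.3%.

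Markers of several myeloid cell types differed between the same groups. Of all tested genes 23.6% were called higher over 13 libraries and 22.3% over 10. Of 10 macrophage markers 7 were called higher over 13 libraries and 9 over 10, led in level by C1qa, C1qb and C1qc, and each had reads in every library. Their summed level was 471 to 592 CPM in wild type, 709.6 to 1038 in knock-in 1, 2, 3 and 7 and 539.7 to 611 in knock-in 4, 5 and 6. The last range overlaps wild type. Of 5 monocyte markers 4 were tested, with Ccr2 and Fcgr4 higher and Ly6c2 lower over 13 libraries, and Ccr2, Fcgr4 and Plac8 higher over 10. Their summed level was 18.2 to 30.3 CPM in wild type, 37.5 to 68.4 in knock-in 1, 2, 3 and 7 and 23.6 to 35.4 in knock-in 4, 5 and 6. Of 6 dendritic cell markers Flt3, Xcr1, Clec9a and Cd209a were higher in both sets; Clec9a had no reads in 1 library, and the 6 summed to 12.5 to 17.6 CPM in wild type and 17.8 to 25.0 CPM over the knock-in libraries. Of the receptors called higher in both sets, Il1r1, Osmr, Csf2ra, Il17ra and Tnfrsf1a overlapped wild type in knock-in 4, 5 and 6. The remaining ones, Il10ra, Il7r, Csf2rb, Csf3r, Tnfrsf1b and Tnfrsf12a, lay above it there. The part of these myeloid cell types in the receptor results was not tested.

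In the TNF family the receptors Tnfrsf12a, Tnfrsf1a and Tnfrsf1b, the decoy receptor Tnfrsf11b and the ligand Tnfsf13b were called higher in both sets. Tnfrsf12a encodes Fn14, the receptor for TWEAK (Tnfsf12), a protein known to be induced in injured muscle and other tissues. It lay at 22.8 to 39.9 CPM in wild type with a median of 28.2. In knock-in 1, 2, 3 and 7 it stood at 86.5, 145, 90.7 and 96.9 CPM, and knock-in 4, 5 and 6 held 93.6, 80.0 and 61.2. All 7 lay well above the highest wild-type library, and knock-in 4, 5 and 6 did not form a lower group here. The rise was 3.20-fold (log2 fold change 1.68 ± 0.19, SE, adjusted p = 2.65e-05) and 3.58-fold (1.84 ± 0.17, SE, adjusted p = 9.58e-06). Per transcript length it became the most abundant of the receptor members in knock-in, at 171 ± 39.8 TPM (SD, n = 7) against 39.8 ± 9.23 TPM in wild type (SD, n = 6), where Il10rb was the highest at 110.4 ± 16.7 TPM.

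Its ligand Tnfsf12 was called over 10 libraries only. It had 35.4 ± 3.01 CPM in the wild type against 41.4 ± 9.51 CPM in knock-in (SD, n = 6 and 7; log2 difference 0.23 ± 0.14, SE, adjusted p = 0.180). Without knock-in 4, 5 and 6 it was called higher (0.38 ± 0.12, SE, adjusted p = 0.0253), but leaving out knock-in 1 (adjusted p = 0.0804) or knock-in 7 (adjusted p = 0.128) ended that call. Tnfsf12 shares exons with a read-through gene, so its estimated counts are divided between them. The ratio of Tnfrsf12a to Tnfsf12 in TPM was 1.498 ± 0.350 (SD, n = 6; range 1.10 to 2.02) in wild type and 4.23 ± 1.53 (SD, n = 7; range 3.01 to 7.51) in knock-in, with no overlap.

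Both TNF receptors rose. Tnfrsf1a, the widely expressed receptor TNFR1 that carries a death domain, lay at 49.3 to 68.2 CPM in wild type with a median of 53.9. It was at 89.3, 97.5, 85.2 and 94.3 CPM in knock-in 1, 2, 3 and 7, all above wild type, and at 59.9, 63.1 and 58.0 CPM in knock-in 4, 5 and 6, inside its range. The log2 fold changes were 0.46 ± 0.14 (SE, adjusted p = 0.0187) and 0.69 ± 0.09 (SE, adjusted p = 9.67e-05). Tnfrsf1b, the receptor TNFR2 found mainly on leukocytes and endothelium, lay at 16.2 to 20.8 CPM in wild type (median 18.3), at 37.0, 28.0, 31.7 and 53.6 CPM in knock-in 1, 2, 3 and 7 and at 22.0, 29.5 and 22.3 CPM in knock-in 4, 5 and 6, with no overlap. It rose 1.76-fold (log2 fold change 0.82 ± 0.18, SE, adjusted p = 0.00312) and 2.07-fold (1.05 ± 0.15, SE, adjusted p = 0.000128).

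Tnf itself was scarce, with 2 to 17 reads in wild type and 9 to 62 in knock-in. Its levels were 0.524 ± 0.404 and 1.07 ± 0.579 CPM (SD, n = 6 and 7), and it did not pass over 13 libraries (log2 difference 1.06 ± 0.50, SE, adjusted p = 0.0923). Over 10 it did (1.40 ± 0.49, SE, adjusted p = 0.0314), and the call was lost without any 1 of wild type 4 or 5 or knock-in 1 or 7 (adjusted p 0.0542 to 0.150). Tnfsf13b, or BAFF, a survival factor for B cells, lay at 2.14 to 3.33 CPM in wild type (median 2.60). It was at 3.15, 3.52, 4.06 and 4.17 CPM in knock-in 1, 2, 3 and 7 and at 2.92, 3.44 and 6.39 CPM in knock-in 4, 5 and 6, so 2 of 7 overlapped wild type. Its log2 fold changes were 0.56 ± 0.20 (SE, adjusted p = 0.0368) and 0.47 ± 0.18 (SE, adjusted p = 0.0424). Both calls depended on single libraries: the first was lost without any 1 of wild type 2, 5 or 6 or knock-in 6 or 7 (adjusted p 0.0520 to 0.0680) and the second without any 1 of wild type 2, 4, 5 or 6 or knock-in 2, 3 or 7 (adjusted p 0.0574 to 0.122). B cell markers summed to 5.16 to 9.88 CPM in the wild type and to 4.55 to 11.8 CPM over the knock-in libraries. Of the 5, all tested, Cd79a alone was called, and it was lower over 10 libraries (log2 fold change -0.81, adjusted p = 0.0440).

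The decoy receptor Tnfrsf11b, osteoprotegerin, which binds RANK ligand and TRAIL, rose in both sets. It lay at 0.319 to 1.49 CPM in wild type with a median of 0.457, at 3.82, 3.08, 1.64 and 2.80 CPM in knock-in 1, 2, 3 and 7 and at 2.21, 2.87 and 1.99 CPM in knock-in 4, 5 and 6. The highest wild-type library, wild type 1, was close below the lowest knock-in one, and the groups did not overlap. The rise was 4.14-fold (log2 fold change 2.05 ± 0.36, SE, adjusted p = 0.000582) and 4.43-fold (2.15 ± 0.39, SE, adjusted p = 0.000663). Of 8 fibroblast markers 3 were called higher over 13 libraries and 7 over 10, beside background shares of 23.6% and 22.3%. All of these markers had reads in every library. Their summed level was 2253 to 4017 CPM in wild type. It was 4277 to 5500.3 in knock-in 1, 2, 3 and 7 and 3828 to 6685 in knock-in 4, 5 and 6. Endothelial markers summed to 1151 to 1449 CPM in wild type, 1324 to 1844 in knock-in 1, 2, 3 and 7 and 894 to 1028 in knock-in 4, 5 and 6, with reads of each in every library. Of these 7 markers Pecam1, Emcn and Vwf were called higher over 10 libraries, and over 13 the smallest adjusted p was 0.105 (Vwf). The part of either cell type in the results for Tnfrsf11b, Il33, Il1r1 and Osmr was not tested.

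**Figure D3:**
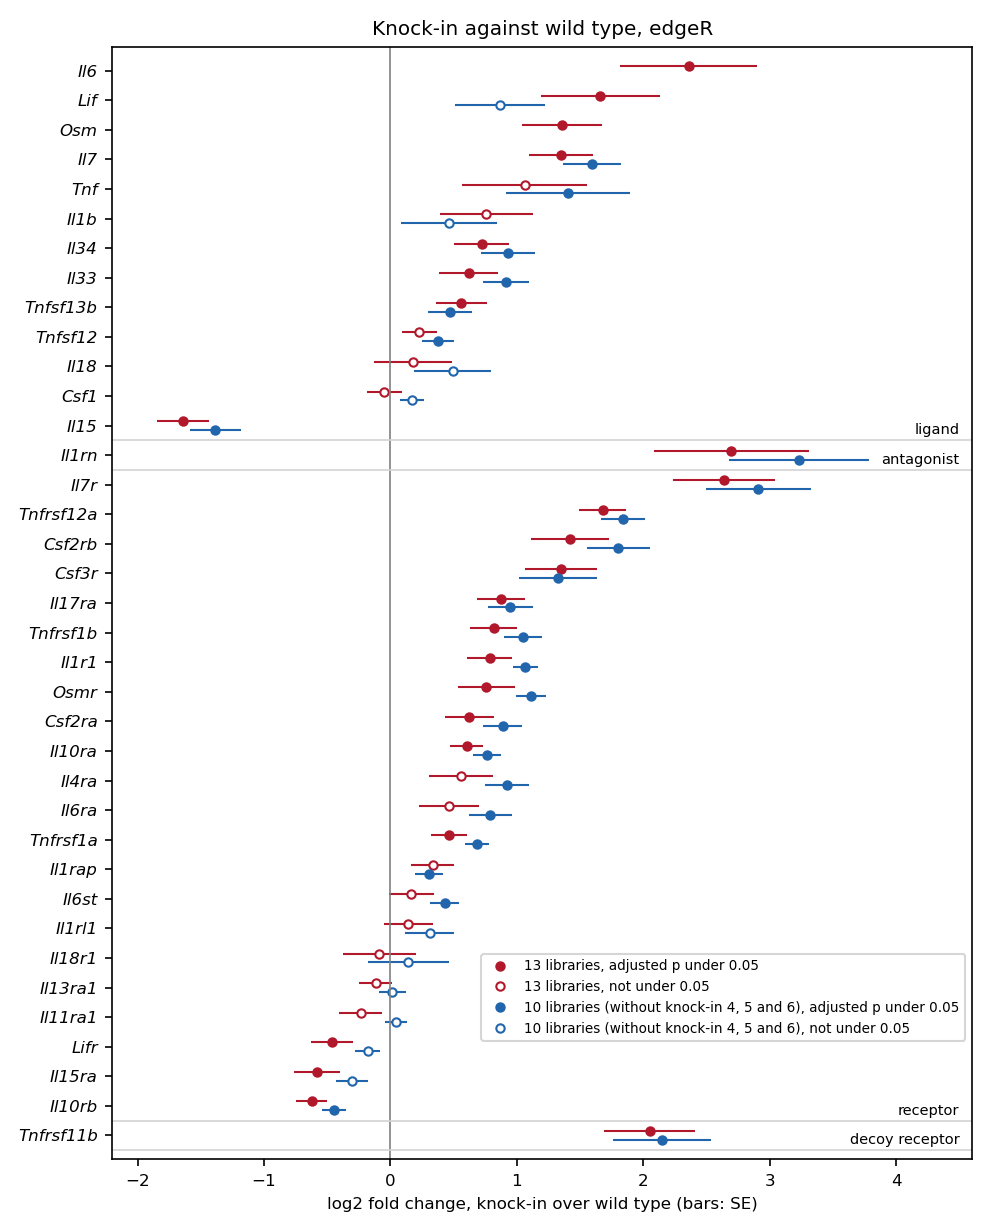
Log2 fold change of knock-in over wild type for each tested member (x axis; bars are 1 SE), over 13 libraries (red) and over 10 (blue), filled where the adjusted p was under 0.05. Most receptors lie to the right of 0 and further right over 10 libraries than over 13, and Il15, Il10rb, Il15ra and Lifr lie to the left in both.

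Ligands and receptors were compared by counts and by level. Of 16 ligands 13 were tested over 13 libraries, with 7 called higher and 1 lower and a median log2 fold change of 0.72; over 10 libraries 11 were tested, with 6 higher, 1 lower and a median of 0.49. All 22 receptors were tested in both sets, with 11 higher, 3 lower and a median of 0.51 over 13 libraries, and 15 higher, 1 lower and a median of 0.78 over 10. The order of the 2 medians thus turned between the sets, but the tested ligands differed, since Il6 and Osm were under the filter over 10 libraries. With no filter on low counts the order did not turn. Ligand and receptor medians were then 0.93 and 0.53 over 13 libraries, and 0.92 and 0.77 over 10. The background shares were 23.6% and 22.3% for higher calls and 21.0% and 21.3% for lower ones. Without knock-in 7 only 3 ligands were called higher in either set, and over 13 libraries 4 without knock-in 5 and 4 without knock-in 6. Over 13 libraries part of this loss was of ligands that fell under the read filter. Il6 and Osm kept their calls in every such fit that tested them (adjusted p up to 0.00978 and 0.00926). Ligands pass the read filter less readily because they are scarce, so the tested ligands are not all ligands.

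Summed per transcript length, the ligands had similar means in both groups while the receptors had a higher mean in knock-in, with no test of either sum. The 16 ligands summed to 143.9 ± 11.4 TPM in wild type and 140.5 ± 28.6 TPM in knock-in (SD, n = 6 and 7). The 22 receptors summed to 397.9 ± 49.6 TPM in wild type and 632.8 ± 116 TPM in knock-in. The receptor to ligand ratio was 2.80 ± 0.597 (range 2.25 to 3.89) in wild type and 4.55 ± 0.660 (range 4.00 to 5.95) in knock-in, with no overlap, and its range in knock-in 4, 5 and 6 was 4.08 to 4.59. Single genes made up much of both sums. Il15 accounted for 57.1% ± 6.72 of the ligand sum in wild type and 26.2% ± 3.49 in knock-in, and the ligands without it went from 61.1 ± 5.63 to 103.6 ± 21.3 TPM. Tnfrsf12a made up 9.99% ± 1.91 of the receptor sum in wild type and 27.2% ± 4.44 in knock-in, and without it the receptors went from 358.1 ± 44.4 to 461.4 ± 94.6 TPM. Without these genes the ligand sum thus rose by a larger factor than the receptor sum. The higher receptor to ligand ratio in knock-in therefore rests on Il15. With Il15 alone left out, the ratio of the mean sums is lower in knock-in, as it is without both genes. With Tnfrsf12a alone left out, it stays higher in knock-in. On the TPM scale the median log2 difference of all tested genes was 0.38 with a pseudocount of 1, against 0.08 in the count fit, so summed TPM carries a shift shared by most genes, whereas the ratio and the shares are free of that scale.

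**Figure D4:**
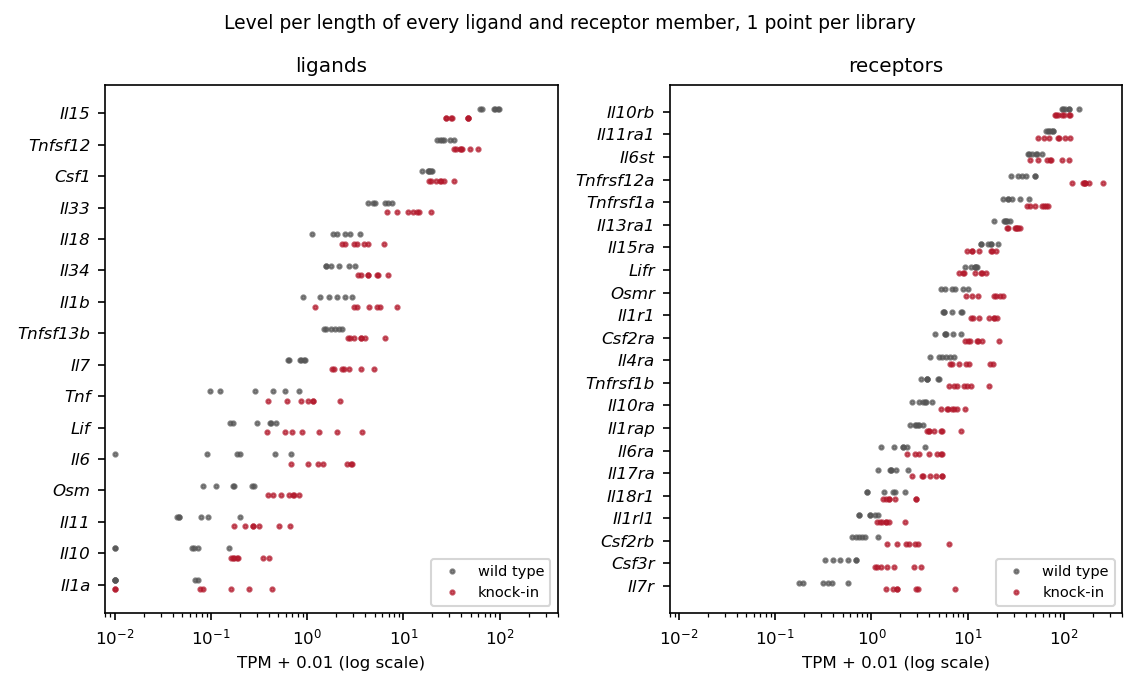
TPM of each of the 16 ligand members (left) and 22 receptor members (right) in every library, on a log axis after adding 0.01, with wild type in grey and knock-in in red. Il15, Tnfsf12 and Csf1 have the highest means among the ligands, Il33 overlaps Csf1 in part, Il10rb, Il11ra1, Il6st and Tnfrsf12a lead the receptors, and Tnfrsf12a and Il15 are the members displaced furthest among the abundant ones.

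**Figure D5:**
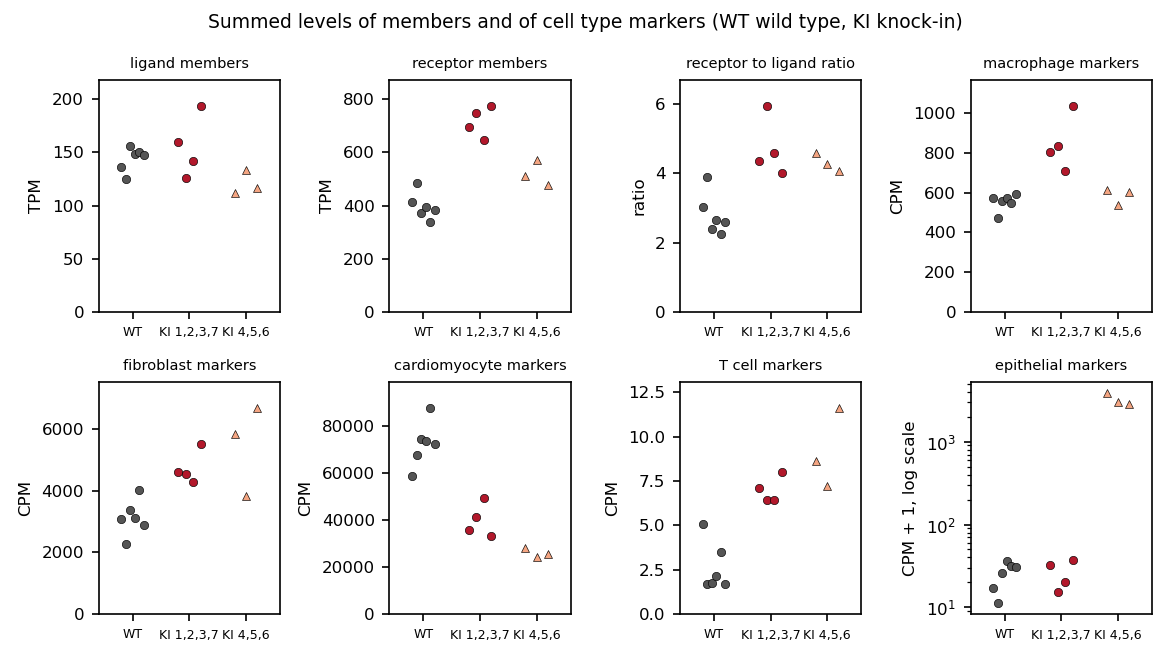
Summed TPM of ligands and receptors, their ratio, and summed CPM of cell type marker lists, with 1 point per library (circles for wild type and knock-in 1, 2, 3 and 7, triangles for knock-in 4, 5 and 6). The receptor to ligand ratio is above wild type in all 7 knock-in libraries, a rise that rests on Il15. Cardiomyocyte markers are below wild type in all 7, and epithelial markers (log axis) are high in knock-in 4, 5 and 6.

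Other genes of these pathways were read from lists chosen in the same way. Of 13 JAK-STAT transducers 6 were called over 13 libraries, all higher, and over 10 libraries 6 were higher and 2 lower. Background shares were 23.6% higher and 21.0% lower over 13 libraries, and 22.3% and 21.3% over 10. Stat3, the main transducer of gp130, averaged 97.6 ± 9.41 CPM in the wild type and rose to 156 ± 36.9 CPM (SD, n = 6 and 7; log2 fold change 0.68 ± 0.15, SE, adjusted p = 0.00224), and with 10 libraries by 0.41 (adjusted p = 0.00290). Ptpn6, the phosphatase SHP-1 of blood cells, and Stat4 rose in both sets, by log2 1.78 and 1.03 and by 2.13 and 1.68. Among 8 SOCS feedback inhibitors Socs3, which gp130 signalling induces, was called higher in both sets (log2 fold change 1.36, adjusted p = 0.00262, and 0.82, adjusted p = 0.000232). Socs1 and Cish were called over 13 libraries only, in opposite directions, and 5 of the 8 did not pass there. Over 10 libraries Socs6 was called lower (-0.25 ± 0.09, SE, adjusted p = 0.0412), and 6 of the 8 did not pass. SOCS genes called higher made up 25.0% and 12.5% of those tested, near or under the background shares.

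Signal carriers of the IL-1 and TNF receptors were mixed. Of 12 IL-1 receptor adaptors and kinases 3 were higher and 2 lower over 13 libraries, with Irak4 and the inhibitory Irak3 higher (log2 fold changes 0.64 and 0.48) and Tab1 lower (-0.35). Of 11 TNF receptor adaptors and kinases 4 were called over 13 libraries, all higher, and over 10 libraries 7 were higher and 1 lower. They included Traf1 (log2 fold changes 1.05 and 1.08), Traf3 (0.58 and 0.71) and Map3k14, the kinase NIK of the alternative NF-kappaB route (0.54 and 0.61). Of 15 NF-kappaB subunits and inhibitors 10 were higher and 1 lower over 13 libraries, and 6 and 1 over 10. The inhibitor Nfkbie (1.29 and 1.12), Nfkbiz (1.41 and 0.79) and Tnip1 (0.78 and 0.50) had the smallest p-values over 13 libraries. These counts stand beside background shares of 23.6% higher and 21.0% lower over 13 libraries, and 22.3% and 21.3% over 10.

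Outside the 42 members, other interleukins were mostly too scarce to test: 8 of 31 passed the filter, and 1 was called in both sets. This was Ctf1, cardiotrophin-1, a gp130 cytokine of heart muscle, which fell from 7.22 ± 1.08 to 3.12 ± 0.765 CPM (SD, n = 6 and 7; log2 fold change -1.20 ± 0.19, SE, adjusted p = 0.000247). Of 29 other cytokine receptors 18 were tested over 13 libraries and 7 were higher, and over 10 libraries 11 of 17. The shares of all tested genes called higher were 23.6% and 22.3%. Il21r and Csf2rb2 rose by log2 1.18 and 1.75. Of 15 other TNF superfamily ligands 5 were tested and Ltb alone was called, higher in both sets (log2 fold changes 1.78 and 1.68). Of 21 other TNF receptor superfamily members 14 were tested over 13 libraries, with 2 higher (14.3%) and 1 lower. Over 10 libraries 15 were tested, with 5 higher and 1 lower. Tnfrsf11a, the receptor RANK, rose (log2 fold change 0.84, adjusted p = 0.00581), as did Tnfrsf25 (0.90, adjusted p = 0.0302), whereas Tnfrsf19 fell from 7.78 ± 1.14 to 2.35 ± 0.723 CPM (-1.72 ± 0.20, SE, adjusted p = 3.76e-05).

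Genes that textbooks list as induced by these cytokines were higher for the most part. Of 15, 13 were tested, with 10 higher and 1 lower over 13 libraries and 9 called over 10, all higher. The shares of all tested genes called higher were 23.6% and 22.3%. Timp1, a tissue inhibitor of metalloproteinases, averaged 3.24 ± 1.38 CPM in the wild type and rose to 23.6 ± 6.69 CPM (SD, n = 6 and 7; log2 fold change 2.86 ± 0.26, SE, adjusted p = 6.57e-06). Serpina3n, an acute-phase protease inhibitor, averaged 8.10 ± 2.30 CPM and rose to 55.0 ± 37.4 CPM (2.77 ± 0.38, SE, adjusted p = 0.000124), and Lcn2, or lipocalin-2, by 1.63 ± 0.31 (SE, adjusted p = 0.000885). The median log2 fold change of the 13 tested genes was 1.21 and 0.82, against 0.08 and 0.02 for all tested genes.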

How the data were processed

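Right ventricular poly(A)+ RNA was sequenced in 13 libraries. Estimated counts and TPM per gene are as the authors deposited them; the submitters' processing notes name DRAGEN and GRCm39, and the strand setting is not given in the sources used here. Groups came from sample titles. Members and lists were chosen with earlier results of these data known. Estimated counts were rounded and tested in edgeR 4.0.16 (R 4.3.3; quasi-likelihood F test with robust fit, filterByExpr, TMM, Benjamini-Hochberg adjustment over all tested genes, threshold 0.05), over 13 libraries and again without knock-in 4, 5 and 6. CPM uses the 13-library TMM scale. Alternatives were DESeq2 1.42.0 (its size factors and its test), library totals, other filters, limma 3.58.1 on log2(TPM + 1) and log2(TPM + 0.1), a replicate block, an indicator for knock-in 4, 5 and 6, and leaving out each library.

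Named were all members (values by library for those called in both sets, otherwise means or reads), Dsg2, up to 3 called genes per pathway list by smallest p over 13 libraries, and up to 3 markers per cell type by level. Further markers were named where calls, sums or missing reads are described. On simulated data, changes were placed in 200 genes with over 1 CPM in wild type. The 13-library fit recovered 63% of 2-fold and 12% of 1.5-fold changes (14260 genes) and the 10-library fit 91% and 57% (14240 genes). False calls made up 6.25% and 5.13% of all calls. These shares do not cover scarcer genes or data in which many genes change. The closest pair of libraries (wild type 3 and 6) had a chi-square statistic of 7.52 per residual degree, so none was taken for a repeat. Exon overlaps of at least 50 bases came from GENCODE M21, and read numbers were called whole within 1e-09. The result for 1 listed gene is not reported here.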

Additional observations from a re-analysis of the deposited data

Results flagged for a closer look

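Tnfsf12 in wild type 1 lay apart from its group, at 41.3 CPM, while the remaining 5 wild-type libraries held 33.1 to 35.5 CPM. It was the 1 value flagged among 74 groups of libraries checked, by the gap between the highest or lowest library and its nearest neighbour relative to the whole range, where chance flags about 1 in 20 groups. Tnfsf12 shares exons with a read-through gene, and the part of that sharing in this value was not tested.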

How the results depend on the processing

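Of the values for single members and Dsg2 under all alternatives, 750 over 13 libraries and 593 over 10 kept their side of the threshold. Among these, direction was not compared where neither value passed. Csf1 over 13 libraries, for example, went from -0.048 to 0.204 with library totals. A further 33 and 22 newly passed, 37 and 33 no longer passed, and 4 turned with the main or the alternative value passing. The 4 were Csf1 (0.358 and 0.373) and Il13ra1 (0.337 and 0.349) over 13 libraries on log2(TPM + 1) and log2(TPM + 0.1). Over 13 libraries, log2(TPM + 1) and log2(TPM + 0.1) each gave 31 members higher (main 20), 1 lower (main 4), 12 ligands higher (main 7) and 17 receptors higher (main 11), and the ligand median was 1.11 with a pseudocount of 0.1 (main 0.72). Members lower were 2 with library totals and 2 with the indicator for knock-in 4, 5 and 6. Over 10 libraries, members lower were 1 (main 2) with library totals and with either TPM pseudocount. There the ligand median was 0.91 by DESeq2, 0.92 with no filter and 0.93 on log2(TPM + 0.1) (main 0.49), and the receptor median 1.02 with library totals and 1.14 on log2(TPM + 0.1) (main 0.78). On the count scale all tested genes split into 3442 higher and 3060 lower over 13 libraries, on log2(TPM + 1) into 7665 and 1087, and on log2(TPM + 0.1) into 7840 and 1098; over 10 libraries 3241 and 3099 became 7737 and 924, and 7704 and 933. TPM values carry no TMM scale, and that construction moves all genes; no other cause was tested.

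With the replicate number as a block, 4 ligands were higher over 13 libraries, and over 10 libraries 14 members were higher, 1 was lower, 2 ligands were higher and the receptor median was 0.59; all tested genes then gave 2270 higher and 2541 lower over 13 libraries and 1385 and 1400 over 10. Same-numbered libraries correlated in their deviations by -0.11 to 0.09 over 13 libraries and -0.04 to 0.24 over 10. Of them 0 correlated best with their own number, which gives no sign that the numbers pair the libraries. So few pairs cannot exclude pairing, and the labels do not state it. Leaving out 1 library at a time over 13 libraries gave 16 to 20 members higher, 3 to 4 lower, 3 to 7 ligands higher with a median of 0.55 to 0.83, and 11 to 12 receptors higher with a median of 0.38 to 0.61. Over 10 libraries it gave 19 to 23 members higher, 2 to 4 lower (4 without knock-in 2), 3 to 7 ligands higher with a median of 0.40 to 0.74, and 14 to 15 receptors higher with a median of 0.68 to 0.82. Depth limits the scarce ligands Il1a, Il10 and Il11 and the decoys Il1r2 and Il13ra2, which were under the filter.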
